A study of Mus musculus with 6 samples.

Results

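IL-6, TNF and IL-10 are the cytokines through which an alveolar macrophage, the phagocyte that lives in the airspaces, first raises and then restrains a response to inhaled bacteria. The genes described here are these 3 cytokines, the IL-6 relatives Osm and Lif, and the receptor genes Il6ra, Tnfrsf1a, Tnfrsf1b, Il10ra and Il10rb. They were chosen by name, and all 10 were found among the 25206 genes of the expression table. RNA came from cells lavaged from the lungs of unchallenged Zcchc6+/+ mice and of Zcchc6-/- mice, which lack the RNA uridyltransferase Zcchc6, with 3 Affymetrix Mouse Gene ST arrays per genotype. According to the methods, the mutation is a germline deletion of a pair of critical exons made by an EIIa-cre transgene that was then bred out, so every cell of these mice carries it and the lavage cells were not the only cells affected. Adult mice of both sexes were used, the sample labels give neither sex nor age, and no sorting step is described after the lavage. The labels do not say that each replicate was a separate mouse, so the p-values reflect the spread among the arrays, of which an unknown share may be technical. In each genotype 1 array had little Xist and high Ddx3y, a gene of the Y chromosome, and the other 2 the reverse, so the arrays of a genotype were not all repeats of 1 mouse.

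As background, IL-6 binds its receptor chain, encoded by Il6ra, and the shared chain gp130, encoded by Il6st, and the signal passes through JAK kinases to STAT3. Oncostatin M (Osm) and leukaemia inhibitory factor (Lif) use gp130 with receptor chains of their own. TNF acts through a death domain receptor found on most cells (Tnfrsf1a) and through a second receptor, without a death domain, that is most abundant on blood cells (Tnfrsf1b). IL-10 binds the chain encoded by Il10ra, pairs it with the widely shared chain encoded by Il10rb, and limits the inflammatory output of macrophages through STAT3. The mRNAs of Il6 and Tnf are short-lived, and RNA-binding proteins such as tristetraprolin (Zfp36) and Regnase-1 (Zc3h12a) control their decay.

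The promoters of Il6 and Tnf are shown because these genes had the lowest and the highest wildtype signal among the cytokines listed. Each is the RefSeq window of 300 bases on GRCm38.p6, with 250 bases before and 50 after the start of the gene, written in the direction of the gene. Il6 lies at chr5:30012864-30013163 on the plus strand, and Tnf at chr17:35201958-35202257 on the minus strand. Capitals mark matches on either strand to 3 motifs, an NF-kB site (GGANTTTCC), an AP-1 site (TGANTCA) and a TATA box (TATAAA).
Il6: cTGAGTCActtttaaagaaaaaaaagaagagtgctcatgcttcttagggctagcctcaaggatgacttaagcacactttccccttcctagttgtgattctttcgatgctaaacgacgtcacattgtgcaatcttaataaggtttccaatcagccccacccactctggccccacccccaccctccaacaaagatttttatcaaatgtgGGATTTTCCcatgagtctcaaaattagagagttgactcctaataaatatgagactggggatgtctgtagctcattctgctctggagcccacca
Tnf: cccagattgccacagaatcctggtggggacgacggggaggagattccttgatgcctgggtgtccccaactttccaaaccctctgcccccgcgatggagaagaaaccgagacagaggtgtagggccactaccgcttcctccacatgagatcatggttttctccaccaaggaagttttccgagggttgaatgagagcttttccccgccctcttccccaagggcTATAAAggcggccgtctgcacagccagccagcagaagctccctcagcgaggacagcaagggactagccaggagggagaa
The Il6 window held the NF-kB letters, beginning 43 bases upstream of the start, and the AP-1 letters, beginning 249 bases upstream. The Tnf window held the TATA box letters, beginning 29 bases upstream. Of the 32851 promoter windows in the table, 1.25% held the NF-kB letters, 7.81% the AP-1 letters and 13.6% the TATA box letters. Windows were found for 6 of the 10 genes, and among the others the AP-1 letters occurred in that of Lif. A match describes letters and does not show that a factor binds.

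Alveolar macrophage markers were high in all 6 arrays, the 17 measured averaging 10.54 to 10.80 on the log2 scale, with Siglecf at 11.18 to 11.29. Of these 17, 4 had a higher and 13 a lower mean on the Zcchc6-/- arrays, their median log2 difference was -0.095 and 0 passed the test. The arrays did not overlap for 6 of them, 35.3% against 10.2% of all genes. These were Marco, with a log2 fold change of 0.43, and Fabp4, Krt79, Itgax, Lpl and Cd68, with -1.17, -0.47, -0.24, -0.19 and -0.11. The part of these differences in the values below was not tested. Zcchc6 itself read 8.65 to 8.77 in Zcchc6+/+ and 7.69 to 8.22 in Zcchc6-/- arrays, a log2 fold change of -0.70 (adjusted p = 0.774 from limma), and the table does not show how many of its probes lie in the deleted exons. One array stood apart, Zcchc6-/- replicate 1, in which 18 T cell markers averaged 2.46 above their Zcchc6+/+ mean, against -0.33 to 0.18 in the other 5 arrays. Its Cd3e and Lck read 8.03 and 6.95, against 3.96 to 5.14 and 4.16 to 4.60 in the others. The part of these cells in the values below was not tested beyond fits without that array. Airway epithelial markers averaged from -0.49 to 1.01 over the Zcchc6+/+ mean across the arrays. All 6 of them had the higher mean on the Zcchc6-/- arrays, their median log2 difference being 0.56, and the arrays overlapped for each. The averages were 1.01, 0.70 and -0.077 on the Zcchc6-/- arrays, against -0.49, 0.48 and 0.0065 on the Zcchc6+/+ arrays. Of the 84 measured markers of cell types other than the alveolar macrophage, 0 passed the test. The arrays did not overlap for 4 of the 84 that were higher in Zcchc6-/- macrophages (Il7r, Cx3cr1, Ms4a1 and the neutrophil marker Cxcr2, with log2 fold changes of 0.75, 0.26, 0.34 and 1.09), and among those that were lower were C1qa, Fcgr4 and Lamp3, with -0.37, -0.28 and -0.26. Because lavage cells were profiled in bulk, fewer cells of a type and less RNA per cell cannot be told apart.

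No difference between genotypes in these 10 genes passed the test. In limma, 0 had an adjusted p under 0.05 and 0 had an unadjusted p under 0.05. Of all genes, 2.50% were higher and 2.53% lower on the Zcchc6-/- arrays at the unadjusted threshold, and 0% passed after Benjamini-Hochberg adjustment. Means were higher on the Zcchc6-/- arrays for 5 of the 10 genes and lower for 5, the median log2 fold change being -0.028, against -0.0063 over all genes. The arrays of the genotypes did not overlap for 1 of the 10, Il10, and for 10.2% of all genes. The adjusted p-values lay between 0.997 and 1.00. Over the 10 genes the 95% intervals reached from a fold of 0.623, the lower bound for Osm, to a fold of 1.65, the upper bound for Tnf. The intervals differed among the genes, that of Tnfrsf1a running from a fold of 0.808 to 1.12. With 3 arrays per genotype, the values of each gene leave any fold inside its own interval possible. For Il6 and Il10, with Zcchc6+/+ means of 1.66 and 2.05, signal over background is unknown. Their intervals describe the signal and set no bound on a change in mRNA.

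**Figure D1:**
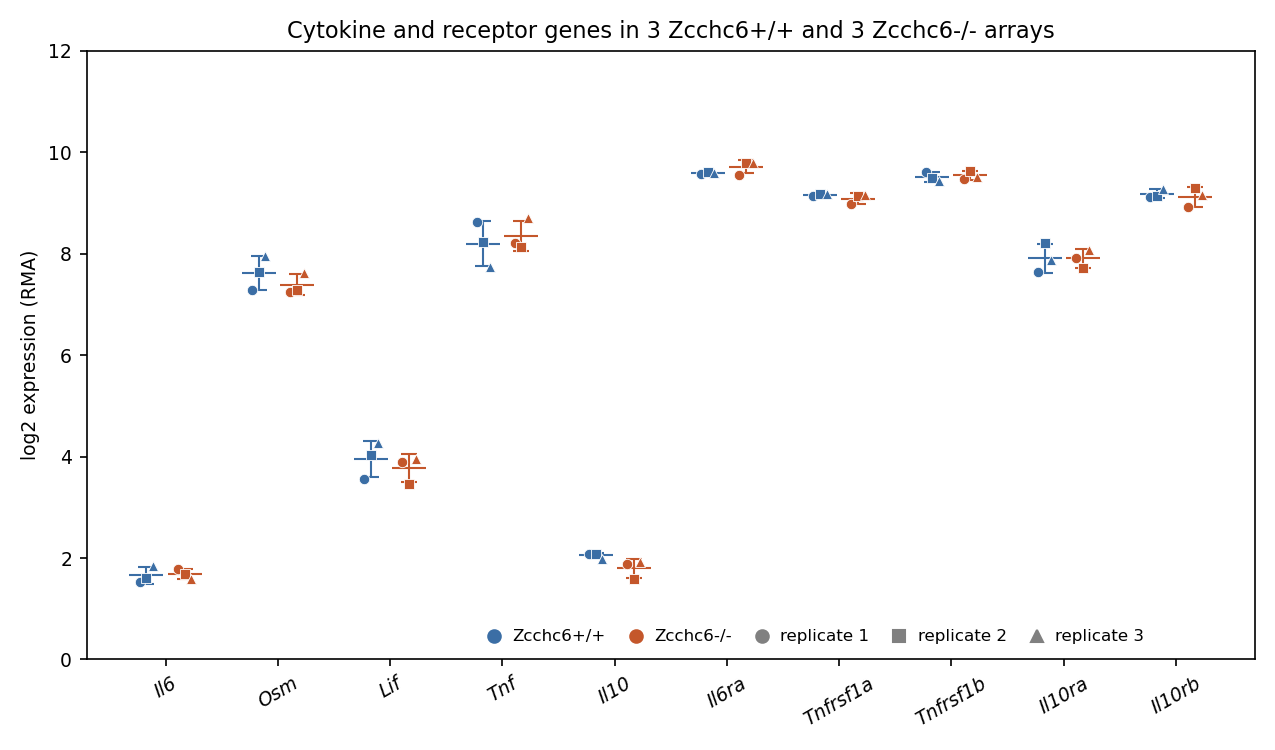
Log2 expression (vertical axis, RMA values) of the 10 genes in each of the 3 Zcchc6+/+ arrays (blue) and the 3 Zcchc6-/- arrays (orange), with the mean as a horizontal line and the SD as error bars. Il6 and Il10 lie near 2 or below in every array, whereas the receptor genes lie between 7.63 and 9.79.

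Il6 gave the lowest signal of the cytokine genes. Its values were 1.52, 1.62 and 1.85 on the Zcchc6+/+ arrays, against 1.78, 1.68 and 1.59 on the Zcchc6-/- arrays. The Zcchc6-/- values all lay inside the Zcchc6+/+ range. The Zcchc6+/+ mean was 1.66 ± 0.17 (SD, n = 3) and the Zcchc6-/- mean 1.68 ± 0.092 (SD, n = 3), a log2 fold change of 0.023 (95% interval -0.26 to 0.31) that became -0.021 after a second quantile normalization. Olfactory and vomeronasal receptor genes, which are mostly silent outside sensory neurons, give a landmark for an unexpressed gene on these arrays. Of 1354 such genes, 72.2% had a higher Zcchc6+/+ mean than Il6. Signals of different genes depend on their probes and are not abundances, and the table has no detection call, so a transcript below the reach of the probes and one that is absent read alike. 

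Oncostatin M mRNA was measured well above that landmark. Osm measured 7.29, 7.63 and 7.96 on the Zcchc6+/+ arrays, against 7.25, 7.28 and 7.62 on the Zcchc6-/- arrays. Zcchc6+/+ replicates 2 and 3 lay above all Zcchc6-/- arrays, the former by the difference between 7.63 and 7.62, and replicate 1 lay among them. The mean was 7.63 ± 0.34 (SD, n = 3) against 7.39 ± 0.20 (SD, n = 3), a log2 fold change of -0.24 (95% interval -0.68 to 0.20). Leaving out Zcchc6+/+ replicate 1 gave -0.41, and leaving out Zcchc6+/+ replicate 3 gave -0.071.

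Lif, a cytokine closely related to Osm, had a signal near the median of the table. Lif measured 3.56, 4.03 and 4.27 on the Zcchc6+/+ arrays, against 3.90, 3.46 and 3.95 on the Zcchc6-/- arrays. The lowest array of the 6 was a Zcchc6-/- array and the highest a Zcchc6+/+ array, with overlap between them. The log2 fold change was -0.19 (95% interval -0.68 to 0.31), and 7.83% of the sensory receptor genes had a higher Zcchc6+/+ mean. Leaving out Zcchc6+/+ replicate 1 gave -0.38, whereas leaving out Zcchc6+/+ replicate 3 or Zcchc6-/- replicate 2 gave -0.028 and -0.030.

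Tnf was the cytokine gene with the highest signal, above that of every sensory receptor gene. It measured 8.63, 8.23 and 7.74 on the Zcchc6+/+ arrays, against 8.22, 8.13 and 8.70 on the Zcchc6-/- arrays. The Zcchc6+/+ arrays alone spanned almost the whole range of the 6, and a Zcchc6-/- array was the highest. The mean was 8.20 ± 0.44 (SD, n = 3) against 8.35 ± 0.30 (SD, n = 3), a log2 fold change of 0.15 (standard error 0.24, 95% interval -0.42 to 0.72). This was the widest interval of the 10 genes, and the spread of Tnf over the 6 arrays exceeded that of 91.5% of all genes. The log2 fold change of Tnf was 0.36 when Zcchc6+/+ replicate 1 was left out and 0.26 when Zcchc6-/- replicate 2 was, and it turned to -0.080 without Zcchc6+/+ replicate 3 and to -0.025 without Zcchc6-/- replicate 3.

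Il10 was the gene of the set whose arrays separated by genotype. It measured 2.08, 2.09 and 1.99 on the Zcchc6+/+ arrays, against 1.89, 1.58 and 1.91 on the Zcchc6-/- arrays. Every Zcchc6-/- array lay below every Zcchc6+/+ array; the nearest were 1.99 and 1.91. The mean was 2.05 ± 0.056 (SD, n = 3) against 1.79 ± 0.18 (SD, n = 3), a log2 fold change of -0.26 (95% interval -0.54 to 0.027, unadjusted p = 0.0703, adjusted p = 0.997 from limma). Under the 13 alternatives in which Il10 was tested, log2 fold changes lay between -0.32 and -0.15, with adjusted p-values of 0.763 or more from limma. The direction could not turn with 1 array left out, since the arrays did not overlap. Other variance models and the replicate block left the value as it was. A separation of this kind occurred for 10.2% of all genes, and the signal of Il10 lay in the range of silent genes, since 52.9% of the sensory receptor genes had a higher Zcchc6+/+ mean.

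**Figure D2:**
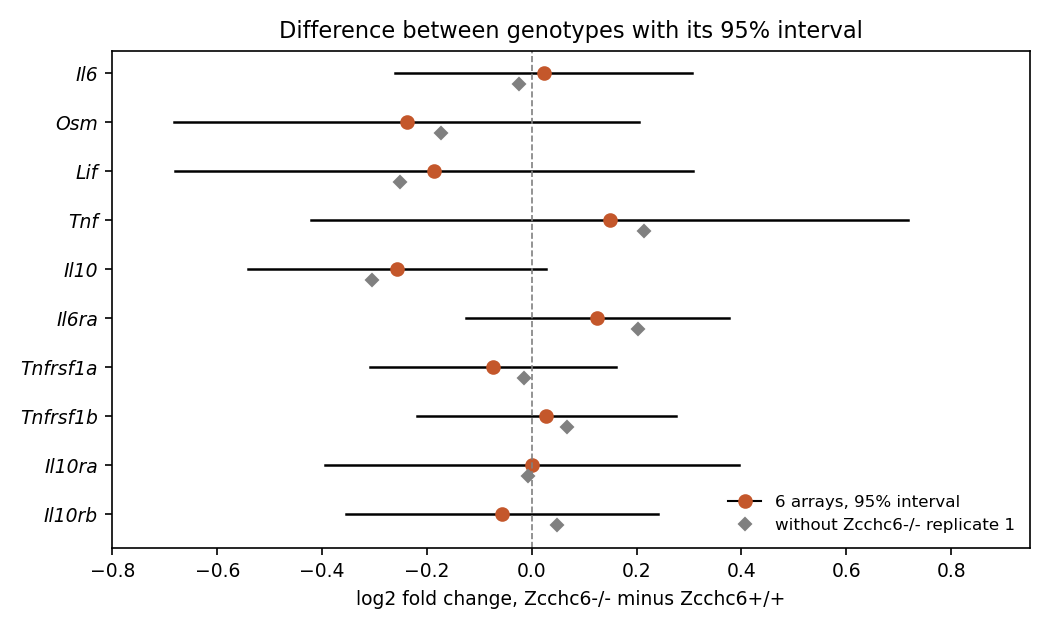
Log2 fold change of each gene, Zcchc6-/- minus Zcchc6+/+ (horizontal axis), from all 6 arrays (orange circles) with its 95% interval (black lines), and from the 5 arrays left without Zcchc6-/- replicate 1 (grey diamonds). Every interval includes 0, and the interval of Tnf, from -0.42 to 0.72, is the widest.

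The receptor genes gave high signals, each above every sensory receptor gene. Their SD over the 6 arrays ran from 0.077 for Tnfrsf1a to 0.21 for Il10ra, and that of the cytokine genes from 0.12 for Il6 to 0.35 for Tnf. Il6ra, the ligand-binding chain for IL-6, measured 9.56, 9.61 and 9.59 on the Zcchc6+/+ arrays, against 9.56, 9.79 and 9.79 on the Zcchc6-/- arrays. The last 2 Zcchc6-/- arrays lay above all Zcchc6+/+ arrays and the first lay level with the lowest of them. The log2 fold change of Il6ra was 0.13 (95% interval -0.13 to 0.38), and it was 0.20 (unadjusted p = 0.0906, adjusted p = 0.875 from limma) when Zcchc6-/- replicate 1, which carried the T cell signal, was left out.

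The TNF receptor genes were among the steadiest of the table. Tnfrsf1a measured 9.14, 9.17 and 9.17 on the Zcchc6+/+ arrays, against 8.97, 9.14 and 9.15 on the Zcchc6-/- arrays. A single array, Zcchc6-/- replicate 1, lay below the others, and the log2 fold change of -0.074 (95% interval -0.31 to 0.16) was -0.015 without it. Tnfrsf1b measured 9.62, 9.49 and 9.44 on the Zcchc6+/+ arrays, against 9.46, 9.64 and 9.52 on the Zcchc6-/- arrays. The genotypes overlapped throughout, with a log2 fold change of 0.028 (95% interval -0.22 to 0.28). Over the 6 arrays Tnfrsf1a varied more than only 7.40% of all genes and Tnfrsf1b more than 9.38%.

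Both chains of the IL-10 receptor differed between genotypes by less than the spread of their arrays. Il10ra measured 7.63, 8.20 and 7.88 on the Zcchc6+/+ arrays, against 7.92, 7.72 and 8.08 on the Zcchc6-/- arrays. The Zcchc6-/- arrays all lay inside the range of the Zcchc6+/+ arrays, and both means were 7.91, with a 95% interval of the log2 difference from -0.39 to 0.39. Il10rb measured 9.12, 9.14 and 9.28 on the Zcchc6+/+ arrays, against 8.91, 9.30 and 9.15 on the Zcchc6-/- arrays. Zcchc6-/- arrays were both its lowest and its highest, and the log2 fold change of -0.057 (95% interval -0.35 to 0.24) was 0.047 without Zcchc6-/- replicate 1.

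No array was high or low for the whole set. Zcchc6-/- replicate 1 was the lowest array for 4 genes, Osm, Il6ra, Tnfrsf1a and Il10rb, and Zcchc6+/+ replicate 3 the highest for 4, Il6, Osm, Lif and Tnfrsf1a. In Zcchc6+/+ replicate 3, Osm and Lif stood 0.45 and 0.41 above their means over the 6 arrays while Tnf stood 0.53 below its own. Zcchc6-/- replicate 3, with Tnf 0.42 above its mean, had Osm at 0.12 and Lif at 0.090 above theirs.

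**Figure D3:**
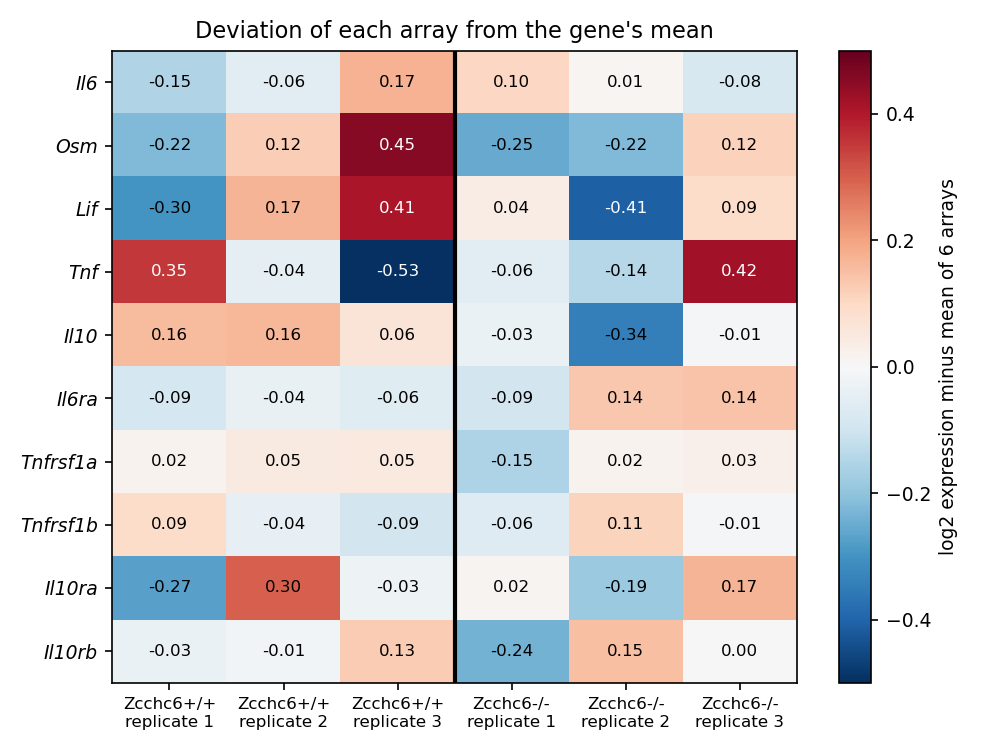
Log2 expression of each gene (rows) in each array (columns) minus the mean of that gene over the 6 arrays, with the value printed in each cell and coloured from blue (below the mean) to red (above). The most extreme cells are Tnf in Zcchc6+/+ replicate 3, at -0.53, and Osm in the same array, at 0.45.

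The surrounding pathways were described with 7 lists of ligands, receptors, signalling proteins, response genes and mRNA regulators, in which 89 different genes were measured besides those above. The lists also hold all of the 10 genes except Tnf and Tnfrsf1a, and the counts of each list below include them. In limma 0 of the 89 passed after adjustment. At an unadjusted p under 0.05, 0 were higher and 5 lower on the Zcchc6-/- arrays, or 5.62% lower against 2.53% of all genes. The arrays did not overlap for 8 of them, 8.99% against 10.2% of all genes. The median log2 fold change of the 89 genes was -0.030, and 53 of them, 59.6%, had a lower mean, against 51.8% of all genes.

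Of 9 measured ligands of the IL-6 family, 3 had a higher and 6 a lower mean, and the median log2 fold change was -0.15, which became -0.22 if Zcchc6-/- replicate 3 was left out, -0.030 if Zcchc6-/- replicate 2 was and -0.071 if Zcchc6+/+ replicate 3 was. Clcf1, a cytokine that signals through the receptor for ciliary neurotrophic factor, measured 6.27, 5.96 and 5.98 on the Zcchc6+/+ arrays, against 5.61, 5.55 and 5.83 on the Zcchc6-/- arrays. Its genotypes did not overlap, and the log2 fold change was -0.41 (unadjusted p = 0.0165, adjusted p = 0.909 from limma). Il31 and Il11, the other ligands nearest to the threshold, had log2 fold changes of -0.23 and 0.16, and the Il11 value was 0.096 without Zcchc6-/- replicate 1. Of 8 receptor chains, 3 had a higher and 5 a lower mean, with a median of -0.081. Leaving out Zcchc6+/+ replicates 1, 2 and 3 in turn gave medians of -0.13, -0.027 and -0.054, and leaving out Zcchc6-/- replicate 3 gave -0.14. Il6st, the shared chain gp130, had a log2 fold change of -0.18 (95% interval -0.43 to 0.070), Cntfr, the receptor chain for ciliary neurotrophic factor, -0.24, and Il27ra, a chain of the IL-27 receptor, -0.24. The Il27ra value was -0.087 without Zcchc6-/- replicate 1.

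Downstream of the IL-6 and IL-10 receptors, 9 of 15 genes of JAK and STAT signalling and its inhibitors had a higher and 6 a lower mean, and the median log2 fold change was 0.033, with 0 past the unadjusted threshold. This median turned to -0.026 without Zcchc6-/- replicate 2 and otherwise lay between 0.00072 and 0.051 with 1 array left out. Stat3, the transcription factor shared by both pathways, had 0.015 and Jak1, a kinase at both receptors, 0.033. The feedback inhibitors Socs2 and Socs3 had -0.22 and -0.11, and the adaptor gene Grb2 had -0.12, of which Socs2 and Grb2 did not overlap between genotypes.

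Of 31 genes of TNF receptor signalling, among them inhibitors of the signal such as Tnfaip3 and Cyld, 9 had a higher and 22 a lower mean. The median log2 fold change was -0.032, and leaving out Zcchc6+/+ replicates 1, 2 and 3 in turn gave -0.0095, -0.010 and -0.053. Leaving out Zcchc6-/- replicate 1 gave -0.016. Mlkl, the effector of necroptosis, measured 6.62, 6.50 and 6.63 on the Zcchc6+/+ arrays, against 6.18, 6.24 and 6.24 on the Zcchc6-/- arrays. Its genotypes did not overlap, with a log2 fold change of -0.37 (unadjusted p = 0.00601, adjusted p = 0.855 from limma). Ripk3, the kinase that acts on it, had -0.10. The adaptor genes Traf5 and Traf1 had log2 fold changes of -0.39 (unadjusted p = 0.0327, adjusted p = 0.981 from limma) and 0.30 (unadjusted p = 0.0578, adjusted p = 0.997 from limma), and Traf1 did not overlap between genotypes.

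Of 13 genes of the IL-10 family and its receptor partners, 3 had a higher and 10 a lower mean, with a median of -0.087 that became -0.18 if Zcchc6+/+ replicate 3 was left out and -0.15 if Zcchc6-/- replicate 2 was. Il22ra1, a receptor chain that pairs with the product of Il10rb, measured 3.68, 3.72 and 3.81 on the Zcchc6+/+ arrays, against 3.31, 3.39 and 3.22 on the Zcchc6-/- arrays. It had the smallest p of all the pathway genes, with no overlap and a log2 fold change of -0.43 (unadjusted p = 0.00345, adjusted p = 0.797 from limma). Il20, a family cytokine, had -0.30 (unadjusted p = 0.0384, adjusted p = 0.981 from limma), and Il20ra, a chain of its receptor, had -0.23, which was -0.099 without Zcchc6-/- replicate 1. All 3 genes had signals below the median of the table.

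Genes that IL-10 is known to induce in macrophages were divided, 5 with a higher and 5 with a lower mean and a median of -0.027, which turned to 0.0025 if Zcchc6-/- replicate 3 was left out and became -0.014 if Zcchc6+/+ replicate 1 was. Ddit4, a stress-induced inhibitor of mTORC1, had the log2 fold change 0.34, which was 0.091 without Zcchc6-/- replicate 1. The transcriptional regulators Bcl3 and Etv3 had -0.19 and 0.15, and these were -0.011 and 0.099 without that array. Of 13 proteins that act on Il6 and Tnf mRNA, 8 had a higher and 5 a lower mean, with a median of 0.010. Leaving out Zcchc6+/+ replicates 1 and 2 in turn gave 0.0058 and 0.030, and leaving out Zcchc6-/- replicate 2 or 3 gave 0.036 or 0.0067. Zfp36, which promotes decay of Tnf mRNA, had -0.14, Zc3h12a, the endonuclease that cleaves Il6 mRNA, 0.034, and Arid5a, which stabilizes Il6 mRNA, 0.16. The Zfp36 value was -0.21 without Zcchc6-/- replicate 1. Hnrnpd, which binds AU-rich elements, had 0.097 with no overlap between genotypes (unadjusted p = 0.334, adjusted p = 0.997 from limma).

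**Figure D4:**
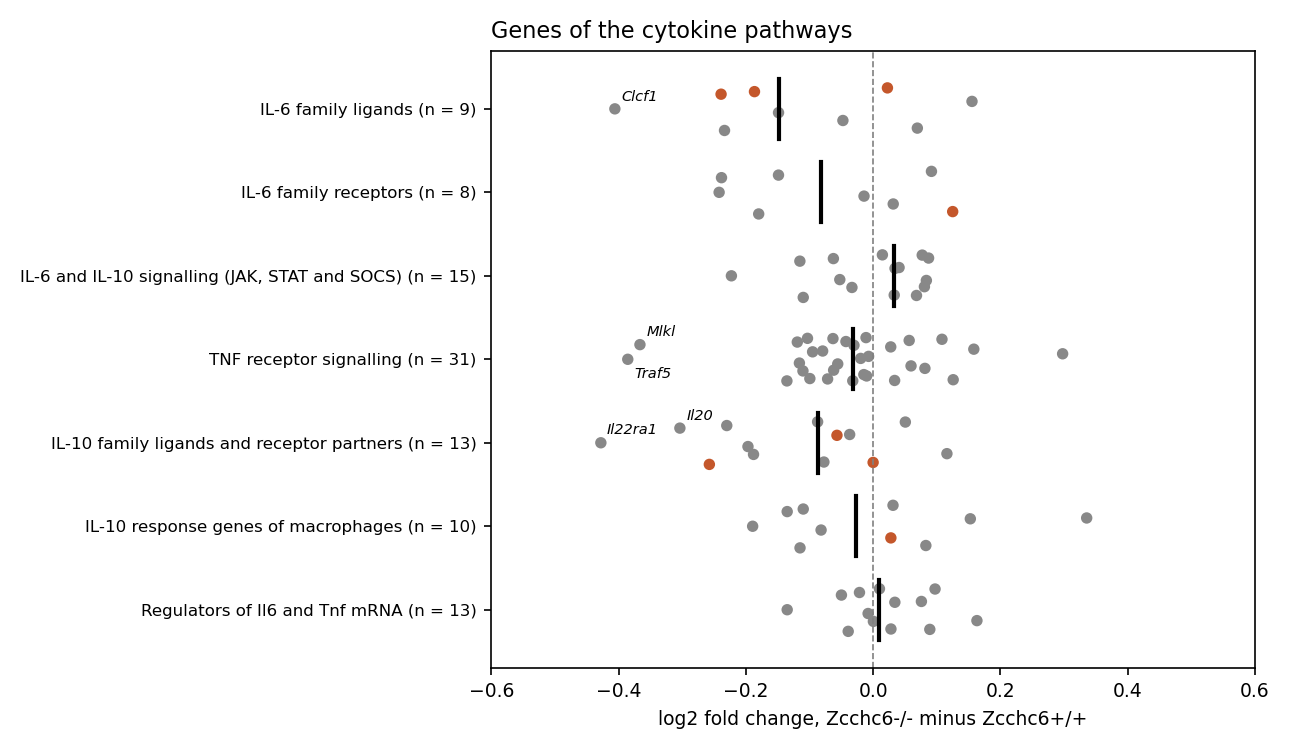
Log2 fold change, Zcchc6-/- minus Zcchc6+/+ (horizontal axis), of every measured gene of the 7 pathway lists (rows, with the number of genes), where the 10 cytokine and receptor genes are orange where a list holds them (Tnf and Tnfrsf1a are in no list) and the bar is the median of the list. Named genes have an unadjusted p under 0.05, and all 5 lie below 0.

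Genes whose values ran most like those of the 3 cytokines over the 6 arrays were sought among the named genes above the median signal (11118 for Il6 and Il10, 11117 for Tnf). Most like Il6 were Zbtb24, Vdac3 and Spg7, with Pearson correlations of 0.976, 0.969 and 0.966. Most like Tnf were Fxyd6, H2-Q7 and Tmem89, with 0.982, 0.980 and 0.966, and most like Il10 were Astn2, Olfr1505 and Vsir, with 0.991, 0.991 and 0.990. With 6 arrays and this many genes ranked, the highest correlations can be large without any link between the genes. Of the ranked genes, 29, 33 and 97 exceeded 0.9 for Il6, Tnf and Il10. The signals of Il6 and Il10 lay in the range of silent genes, and the part of noise in these correlations was not tested.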

How the data were processed

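Total RNA of lavage cells was hybridized to Affymetrix Mouse Gene ST arrays. The authors deposited log2 expression values per Entrez gene, made with RMA in affy 1.36.1 under R 2.15.1 and a Brainarray Entrez Gene mapping. RMA corrects background, gives all arrays a shared distribution and fits 1 value per gene, so a shift common to most genes is removed and probe positions are not used here. No source used here names the genome build behind it. Array medians were 4.36 to 4.45. The number of arrays limits the precision.

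Identifiers were named through RefSeq genes of GRCm38.p6, which gave symbols for 23740 of 25206 genes. All genes were fitted together, Zcchc6-/- minus Zcchc6+/+, with limma 3.58.1 (lmFit, eBayes) in R 4.3.3, no covariate and no filter, and p-values were adjusted over all 25206 genes. The fit was tested on simulated data. Named genes were the 10 described, Zcchc6, cell type markers, the 3 other genes with the smallest p in each pathway list, and for 3 cytokines the 3 genes of highest correlation. Stat3, Jak1, Ripk3 and Zc3h12a were named for their role after their values were seen. The genes and lists were chosen with earlier results of these data known. The sensory receptor landmark was added after seeing the values. Alternatives were a filter at the median signal, other variance models, array weights, 2 other normalizations, Xist as a covariate, a replicate block, a threshold of 0.25 and each array left out.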

Additional observations from a re-analysis of the deposited data

How the results depend on the processing

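For the 10 cytokine and receptor genes, 137 values were recomputed under alternatives, of which 0 passed the threshold in limma, 123 kept the direction of the reported value and 14 did not. The count of 123 includes values whose direction could not change. Other variance models, the replicate block and the filter at the median signal return the same log2 fold change. The log2 fold change of Il6 was -0.021 after a second quantile normalization, and that of Il10ra was -0.0010 with Xist as a covariate, against 7.1e-05 as reported. With each array left out in turn, the log2 fold change ranged from -0.047 to 0.11 for Il6, from -0.080 to 0.36 for Tnf, from -0.021 to 0.080 for Tnfrsf1b, from -0.14 to 0.15 for Il10ra and from -0.15 to 0.047 for Il10rb. The direction of Osm, Lif, Il10, Il6ra and Tnfrsf1a did not change under any alternative in which they were tested. That of Il10 could not change with 1 array left out, since its arrays did not overlap. Il6, Lif and Il10 lie below the median signal and had no value under that filter. The count of genes past the threshold ranged from 0 to 1 with an array left out, the 1 being Olfr43 without Zcchc6-/- replicate 1, and was 0 under each other alternative and at 0.25. The labels do not say whether the replicate numbers pair the arrays. Same-numbered arrays deviated from their group means with correlations of 0.090, -0.23 and 0.046, and differently numbered ones with -0.26 to 0.26. With 3 arrays per genotype these correlations cannot show whether arrays were paired. With the replicate block, 0 genes passed. Signal over background is unknown, so near-floor values such as those of Il6 and Il10 have no bound.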

Other observations

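Xist, a noncoding RNA made from the inactive X, read 3.78 in Zcchc6+/+ replicate 1 and 3.27 in Zcchc6-/- replicate 2, and 10.04 to 10.73 in the other 4 arrays, so both genotypes held 1 array with little Xist. Lif read 3.46 and 3.56 in the 2 arrays with little Xist and 3.90 to 4.27 in the others. Il10ra read 7.63 and 7.72 in them against 7.88 to 8.20, and Tnfrsf1b read 9.62 and 9.64 against 9.44 to 9.52. These were 3 of the 10 genes, and the 2 arrays stood together at 1 end for 2771 of all 25206 genes. The samples were divided by a measured transcript and not by a label, no test was made, and the part of sex in these values was not tested.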
